A study of Mus musculus with 8 samples.

Results

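The genes examined here are 48 genes of the unfolded protein response and of the chaperone systems, taken by name from a list and kept where the mean over the 8 libraries was at least 10 normalized counts. All 48 were in the table of 11233 genes and passed that limit, as did 11032 genes in all. Of the 48, 30 act in the endoplasmic reticulum (ER), 15 in the cytosol and 3 in mitochondria.

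The values come from bulk RNA-Seq of conventional CD4+ T cells (Tconv) sorted from tumors as CCR8+ or CCR8- cells, with 4 libraries of each. CCR8 is a chemokine receptor. Every library is from *Foxp3*EGFP-DTR mice, in which EGFP and the human diphtheria toxin receptor are driven by the endogenous *Foxp3* gene, and all cells were sorted as EGFP-negative. All mice carried B16-F10 tumors, a transplantable mouse melanoma line placed under the skin, and all received diphtheria toxin (DTx), which kills *Foxp3*-expressing regulatory T cells. Genotype, tumor and toxin are therefore shared by both groups, and no library of untreated mice was analysed here. According to the methods, mice were 8 to 14 weeks old and received 4 injections of 1 μg DTx between day 7 and day 13 after implantation. Cells were taken on day 16 according to the methods, whereas the title of a supplementary file gives day 18. The study calls them biological replicates isolated on a single day, but nothing states whether a replicate stands for 1 mouse or whether equal numbers stand for the same mouse, so p-values measure the spread between these libraries.

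Proteins that enter the secretory pathway are threaded into the ER through the SEC61 translocon and are folded there by BiP, by lectins and by protein disulfide isomerases. When unfolded proteins accumulate, the sensors IRE1, ATF6 and PERK start the unfolded protein response. IRE1 splices *Xbp1* mRNA into the form that encodes an active transcription factor, ATF6 is cut to release its own factor, and PERK phosphorylates eIF2alpha. The cytosol has a separate program, in which the factor HSF1 drives HSP70, HSP90 and their partners through heat shock elements. Secreting lymphocytes such as plasma cells are the textbook case of a large ER and of a need for XBP1.

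The sequences that link many of these genes are short elements in their promoters, shown here for the members in which they were found. RefSeq windows of 300 bases (GRCm38.p6, 250 before to 50 after the start of the gene) matched 38 of the 48 members. *Hyou1*, *Manf*, *Atf6*, *Sec61a1*, *Ssr2*, *Hsf1*, *Hspa8*, *Hsp90aa1*, *Hsp90ab1* and *Hspa9* had no entry. The ER stress response element (ERSE) was searched on both strands as CCAAT and CCACG with 9 bases of any kind between them. It was found in 37 of 27025 genes with a window, or 0.137%, and in 8 of the 38 matched members, or 21.1%. Its matches are shown 5′ to 3′ on the strand of the gene, with the element in capitals and 5 bases on each side.
Hspa5: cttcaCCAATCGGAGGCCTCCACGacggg
Hsp90b1 (distal): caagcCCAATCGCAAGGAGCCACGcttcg
Hsp90b1 (proximal): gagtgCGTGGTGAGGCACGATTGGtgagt
Dnajc3: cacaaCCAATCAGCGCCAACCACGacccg
Creld2: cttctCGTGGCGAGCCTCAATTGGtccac
Calr: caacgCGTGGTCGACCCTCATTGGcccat
Canx: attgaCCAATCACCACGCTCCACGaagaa
Pdia6: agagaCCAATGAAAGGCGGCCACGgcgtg
Syvn1: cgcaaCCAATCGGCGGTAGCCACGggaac
The stretches lie at chr2:34772020-34772048 (+) for *Hspa5*, chr10:86705633-86705661 (-) and chr10:86705528-86705556 (-) for *Hsp90b1*, chr14:118937822-118937850 (+) for *Dnajc3* and chr15:88819515-88819543 (+) for *Creld2*. The others lie at chr8:84847070-84847098 (-) for *Calr*, chr11:50325795-50325823 (-) for *Canx*, chr12:17266486-17266514 (+) for *Pdia6* and chr19:6046527-6046555 (+) for *Syvn1*. The proximal match of *Hsp90b1* and those of *Creld2* and *Calr* read on the opposite strand, so the element appears there as its reverse complement. The elements began between 212 bases (*Hsp90b1*) and 44 bases (*Syvn1*) before the start site.

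A related element, ERSE-II, was searched on both strands as ATTGG and CCACG with 1 base between them and was found in 12 genes (0.0444%), of which 2 were the members *Dnajb11* and *Herpud1*, neither of which had an ERSE match. The match of *Herpud1*, at chr8:94386372-94386392 (+), began 52 bases before the start site.
Herpud1: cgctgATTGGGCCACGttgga
The UPR element, searched on both strands as TGACGTGG, was found in 193 genes (0.714%) and in 0 of the matched members. A heat shock element, searched on both strands as GAA, TTC and GAA or as TTC, GAA and TTC with 2 bases between each, was found in 179 genes (0.662%), among them *Hsph1*, *Hspd1* and *Hspe1*. *Hspd1* and *Hspe1* lie head to head and share 1 stretch with 2 overlapping matches, at chr1:55088054-55088081, shown on the strand of *Hspd1*.
Hspd1: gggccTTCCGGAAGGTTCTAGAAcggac
The 250 bases before the start are shown for *Hspa5* and *Pdia6*, at chr2:34771840-34772089 (+) and chr12:17266339-17266588 (+), because both hold the ERSE, in capitals, while the levels of *Hspa5* overlapped between the sorted populations and those of *Pdia6* did not.
Hspa5: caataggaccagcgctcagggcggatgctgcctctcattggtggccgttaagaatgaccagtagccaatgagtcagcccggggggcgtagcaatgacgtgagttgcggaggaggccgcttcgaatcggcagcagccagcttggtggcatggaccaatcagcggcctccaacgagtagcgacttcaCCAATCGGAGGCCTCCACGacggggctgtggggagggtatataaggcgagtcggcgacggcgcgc
Pdia6: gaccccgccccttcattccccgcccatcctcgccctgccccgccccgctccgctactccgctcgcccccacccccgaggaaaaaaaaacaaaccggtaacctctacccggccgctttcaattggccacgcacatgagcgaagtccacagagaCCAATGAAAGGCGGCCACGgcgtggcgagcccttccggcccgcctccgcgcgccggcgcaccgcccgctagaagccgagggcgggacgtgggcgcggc
A match is a run of letters, and binding at these sites was not measured.

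The libraries held 12067780 to 17802628 recovered reads each. The level of 3 reads, the limit below which a value cannot be told from 0 by counting error, was 2.21 to 3.42 normalized counts. CCR8- replicate 1 detected the fewest genes, 8569 against up to 10882, and had 0 reads for 242 genes that were at 100 or more in the 7 other libraries. *Ccr8* itself was measured at 2039, 1293, 6214 and 4637 normalized counts in CCR8- replicates 1 to 4 and at 7975, 6970, 42508 and 22965 in CCR8+ replicates 1 to 4, so the groups did not overlap. The T cell markers, *Cd4* and *Cd3e* among them, summed to between 92969 and 128855 normalized counts in all 8 libraries. Markers of other cells were uneven. The 13 listed macrophage and monocyte genes summed to between 86.7 and 83966 in CCR8- and between 3718 and 28582 in CCR8+ libraries, with medians of 2993 and 22664. Of the 13, 12 had a positive log2 fold change, with a median of 2.13, the direction of most ER members, and their part in those values was not tested. The 7 melanoma genes summed to between 105 and 17389 and between 232 and 21841. In bulk samples, fewer cells of a type and less RNA per cell cannot be told apart.

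No member passed the test. By limma on log2(normalized count + 1), adjusted over all 11032 genes, 0 of 48 members had an adjusted p under 0.05, and neither did any other gene (0.0%). Even *Ccr8*, on which the cells were sorted, was not called by this test at a log2 fold change of 2.37. Its adjusted p was 0.8286 by limma, 0.999 by edgeR and 0.0609 by DESeq2. With the replicate number as a block in the fit, it was 0.0524 by limma and 2.14e-28 by DESeq2. A gene that was not called is therefore not shown to be equal in the 2 groups. At an unadjusted limma p under 0.05 there were 5 members, *Xbp1*, *Pdia6*, *P4hb*, *Cct3* and *Hspa9*, all higher in CCR8+ cells, beside 562 genes in all (5.09%), of which 309 were higher (2.8%) and 253 lower (2.29%). edgeR also called 0 members and 0 genes, with 4 members at an unadjusted p under 0.05, all higher, beside 4.41% of all genes in either direction and 2.44% higher. DESeq2 called 26 genes (0.236%), of which 0 were members, with 7 members at an unadjusted p under 0.05, beside 5.6% of the 10744 genes with a p and 3.02% higher. Of the 7, *Hspa8* and *Dnajb1* were lower. It gave no adjusted p for 10 members. The lowest adjusted p of a member was that of *Xbp1*, 0.8286 by limma and 0.0635 by DESeq2.

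Among the members as a whole, ER genes sat mostly above 0 and cytosolic heat shock genes mostly below. Of the 30 ER members, 25 had a positive log2 fold change (CCR8+ minus CCR8-), against 52.4% of all tested genes, and their median was 0.24, against 0.04 for all tested genes. Of the 15 cytosolic members, 6 were positive and 9 negative, with a median of -0.17. With the same total set for every library, 22 ER members and 4 cytosolic members were positive. The cytosolic median was -0.037 by DESeq2, -0.040 by edgeR and -0.28 after quantile normalization. The 3 mitochondrial members were all positive, with a median of 0.36. The medians within pairs of equal replicate number were 0.25, 0.19, 0.25 and 0.11 for the ER members and -0.10, 0.05, -0.18 and -0.35 for the cytosolic members. Of all tested genes, 8.44% were higher and 8.1% lower in the CCR8+ library in all 4 pairs. Of the ER members 7 were higher and 3 lower in all 4 pairs, and of the cytosolic members 1 and 4.

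**Figure D1:**
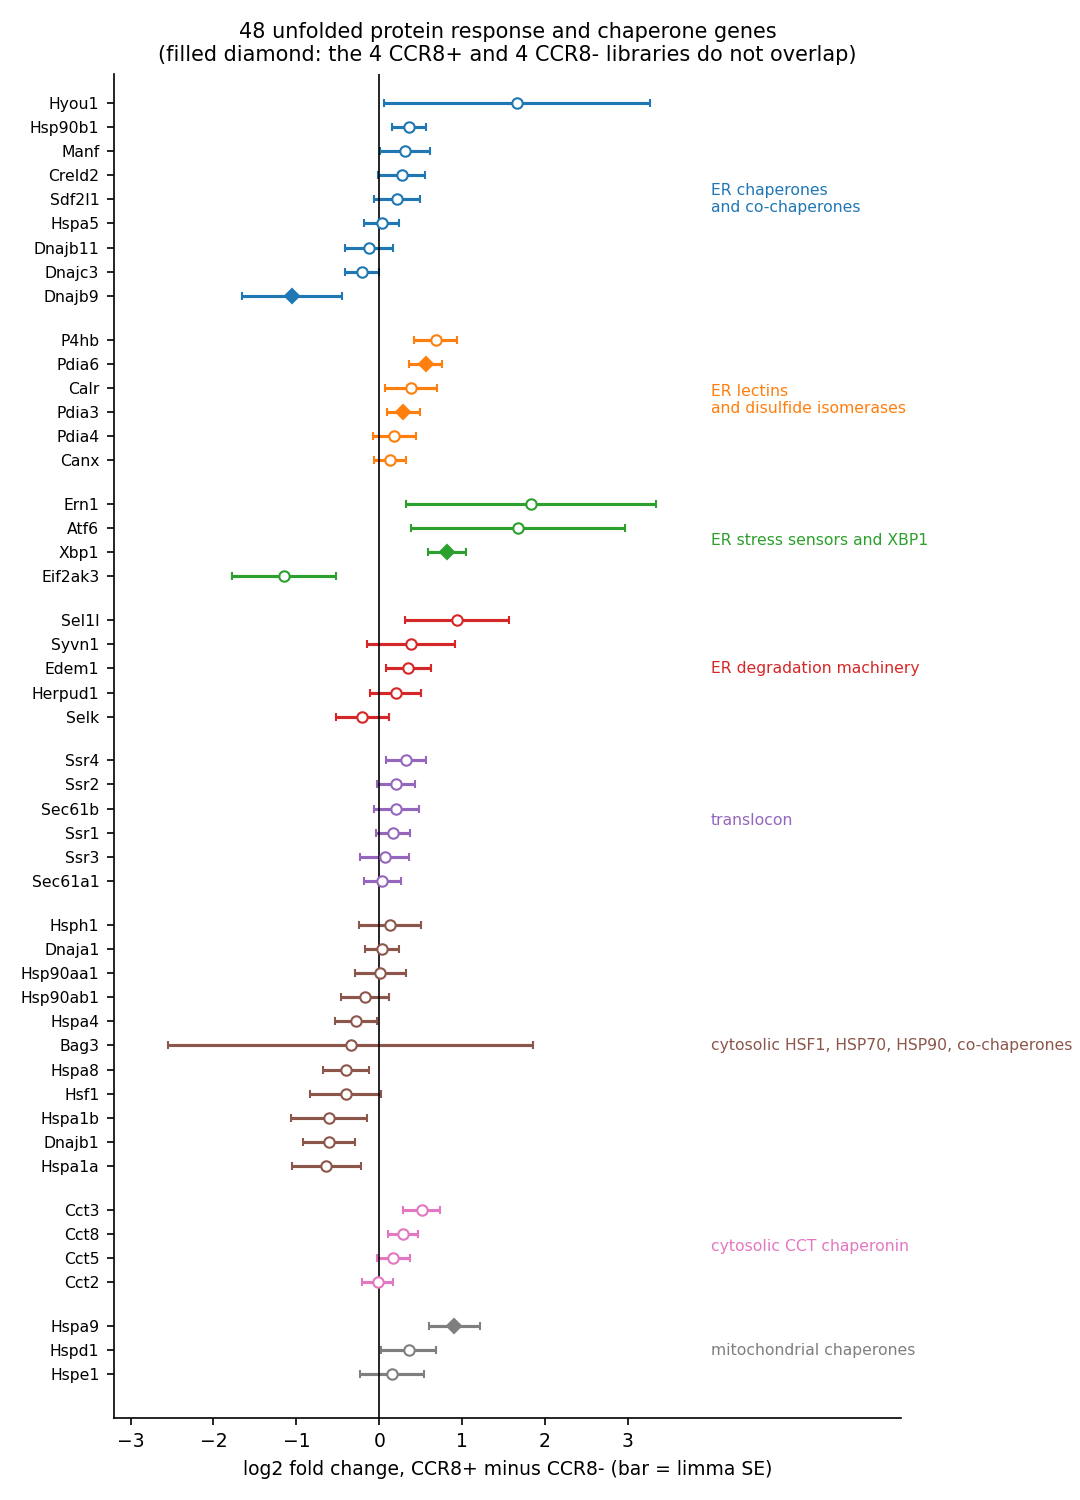
Log2 fold change of CCR8+ over CCR8- libraries (x axis, log2 of normalized count + 1, bar = limma standard error, n = 4 libraries per group) for each of the 48 genes (y axis), grouped by role. Filled diamonds mark the 5 genes whose groups did not overlap: Dnajb9 lies at -1.05, and Pdia6, Pdia3, Xbp1 and Hspa9 lie between 0.29 and 0.91. None passed the adjusted test.

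The groups of 4 libraries did not overlap for 5 members, as for 4.4% of all tested genes. *Xbp1*, *Pdia3*, *Pdia6* and *Hspa9* were higher in every CCR8+ library, where 2.37% of tested genes were, and *Dnajb9* was lower in every CCR8+ library, where 2.03% were. For each of the 5, the exact permutation test over the 70 assignments of the labels gave p = 0.0286, two-sided, the smallest it can give. Any gene whose groups do not overlap has this p, so it adds nothing to the lack of overlap.

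*Xbp1* encodes the transcription factor at the end of the IRE1 arm, and reads per gene do not separate its spliced from its unspliced mRNA. It lies at chr11:5520659-5525893 (GRCm38, plus strand). Its level was 2144, 3181, 3148 and 2581 normalized counts in CCR8- replicates 1 to 4 and 5327, 3903, 6221 and 4118 in CCR8+ replicates 1 to 4. The lowest CCR8+ library was above the highest CCR8- library. The means were 2764 ± 496 and 4892 ± 1085 (SD, n = 4), with a log2 fold change of 0.82 (SE 0.23, limma adjusted p = 0.8286). Leaving out each library in turn gave values between 0.69 and 0.92, and *Xbp1* did not overlap between the groups under any of the scalings tried.

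*Xbp1* is abundant in plasma cells, so a list of B and plasma cell markers stands beside it. *Ms4a1*, a B cell marker, was at 0 in all 8 libraries. *Jchain*, which encodes the joining chain of secreted antibodies, was at 174 and 258 normalized counts in CCR8- replicates 3 and 4, at 325 in CCR8+ replicate 3 and at 0.99 or less in the 5 other libraries. The list as a whole summed to 76.8, 73.5, 1079 and 591 normalized counts in CCR8- replicates 1 to 4. Its sum in the CCR8+ replicates, in the same order, was 534, 121, 766 and 145. The groups overlapped, and CCR8+ replicates 1 and 3, the highest for *Xbp1*, were also the highest CCR8+ libraries for this sum, most of which came from *Cd79b* in CCR8+ replicate 1, at 447. The part of these cells in the *Xbp1* values was not tested.

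The sensor genes were low beside *Xbp1*, and in CCR8- replicate 1 *Ern1* rested on 1 read and *Atf6* on 3. *Ern1*, the gene of IRE1, was at 0.99, 56.6, 111 and 135 normalized counts in CCR8- replicates 1 to 4 and at 30.3, 110, 452 and 177 in CCR8+ replicates 1 to 4. *Atf6* was at 2.96, 245, 498 and 177 and at 384, 321, 319 and 225. Both groups overlap, and for both genes CCR8- replicate 1, the library with the fewest genes detected, stands far below the rest. The log2 fold changes of 1.83 (SE 1.51) for *Ern1* and 1.67 (SE 1.29) for *Atf6* came to 0.43 and 0.14 without that library, and to 1.33 and 0.42 by edgeR on the recovered reads. *Ern1* was higher in the CCR8+ library in 4 of 4 pairs of equal number, and *Atf6* in 3 of 4.

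*Eif2ak3*, the gene of PERK, had a negative log2 fold change. It was at 691, 212, 211 and 332 normalized counts in CCR8- replicates 1 to 4 and at 156, 135, 79.8 and 251 in CCR8+ replicates 1 to 4. The CCR8+ library was lower in 4 of 4 pairs of equal number, where 8.1% of tested genes were, but CCR8+ replicate 4 overlapped the CCR8- group. It differed by -1.15 on the log2 scale (SE 0.63, limma adjusted p = 0.838, exact permutation p = 0.0857), and by -0.77 without CCR8- replicate 1. The 4 genes of this group summed to between 2840 and 3969 normalized counts in CCR8- and between 4469 and 7072 in CCR8+ libraries, a sum in which *Xbp1* took the largest part. As a share of the library the groups overlapped, at 0.0211 to 0.0346% and 0.0341 to 0.0491%.

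All 6 lectins and disulfide isomerases were positive, with a median of 0.34. Their summed level was 27926 to 32157 normalized counts in CCR8- and 33419 to 42021 in CCR8+ libraries, which did not overlap. As a share of the library they did, at 0.208 to 0.274% and 0.241 to 0.322%. *Pdia3* took the largest part of the sum. *Pdia6*, a disulfide isomerase with an ERSE (chr12:17266545-17284770, plus strand), was at 3829, 3741, 2982 and 3549 in CCR8- replicates 1 to 4 and at 5311, 5272, 6234 and 4136 in CCR8+ replicates 1 to 4. Every CCR8+ library was above every CCR8- library, with means of 3525 ± 380 and 5238 ± 859 (SD, n = 4). This is a log2 fold change of 0.56 (SE 0.20, limma adjusted p = 0.838). The groups overlapped after quantile normalization.

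*Pdia3*, the isomerase that works with the lectins on glycoproteins (chr2:121413775-121438687, plus strand), was the most abundant of these 6. It was at 13300, 14533, 10901 and 13522 normalized counts in CCR8- replicates 1 to 4 and at 16815, 16381, 14854 and 15641 in CCR8+ replicates 1 to 4. The groups did not overlap but came close, and the log2 fold change was 0.29 with a standard error of 0.20 (limma adjusted p = 0.838). They overlapped under TMM factors, quantile normalization or the same total in every library.

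*P4hb*, the founding protein disulfide isomerase, is named after its values were seen. It was at 2733, 4059, 5422 and 4169 normalized counts in CCR8- replicates 1 to 4 and at 8242, 6518, 6798 and 4518 in CCR8+ replicates 1 to 4. Only CCR8+ replicate 4 and CCR8- replicate 3 overlapped, and the CCR8+ library was higher in 4 of 4 pairs. The difference was 0.68 on the log2 scale (SE 0.26, limma adjusted p = 0.838, exact permutation p = 0.0571). Of the remaining isomerase and the lectins, *Pdia4* was higher in 4 of 4 pairs with a log2 fold change of 0.18, and *Calr* and *Canx*, the lectins calreticulin and calnexin, were at 0.39 and 0.14. *Calr* was low in CCR8- replicate 1, at 2219 normalized counts, against 4011 to 6763 in the 7 other libraries.

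*Hspa5*, which encodes BiP, the central chaperone of the ER, was at 16329, 14726, 19627 and 17451 normalized counts in CCR8- replicates 1 to 4 and at 17691, 16012, 20289 and 15539 in CCR8+ replicates 1 to 4. The groups overlapped throughout, with means of 17033 ± 2059 and 17383 ± 2147 (SD, n = 4). The log2 fold change was 0.03 with a standard error of 0.22 (limma adjusted p = 0.985), and turned to -0.04 with the same total in every library and to -0.09 after quantile normalization.

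*Hsp90b1*, the HSP90 of the ER, was at 6196, 6210, 4917 and 7156 normalized counts in CCR8- replicates 1 to 4 and at 8530, 7440, 8729 and 6622 in CCR8+ replicates 1 to 4. CCR8- replicate 4 lay within the CCR8+ range. Its log2 fold change was 0.36 (SE 0.20, limma adjusted p = 0.838, exact permutation p = 0.0571).

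*Dnajb9*, the co-chaperone of BiP known as ERdj4, which restrains IRE1 and is itself a known XBP1 target, was lower where *Xbp1* was higher. It was at 260, 275, 372 and 245 normalized counts in CCR8- replicates 1 to 4 and at 157, 149, 61.6 and 241 in CCR8+ replicates 1 to 4. CCR8+ replicate 4 and CCR8- replicate 4 differed by a few counts only. The means were 288 ± 57.2 and 152 ± 73.4 (SD, n = 4), and the log2 fold change was -1.05 with a standard error of 0.61 (limma adjusted p = 0.838). The groups overlapped after quantile normalization. *Dnajb9* lies at chr12:44205559-44210326 (minus strand).

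*Dnajc3*, which inhibits PERK, was lower in 4 of 4 pairs, with a log2 fold change of -0.21. The other co-chaperones were *Dnajb11* at -0.12, *Sdf2l1* at 0.22, *Creld2* at 0.27 and *Manf* at 0.31. *Hyou1*, an HSP70 relative of the ER, had 0 reads in CCR8- replicate 1, between 126 and 275 normalized counts in the 3 other CCR8- libraries and between 136 and 171 in the CCR8+ libraries. Its log2 fold change of 1.66 (SE 1.61) turned to -0.19 without CCR8- replicate 1 and was 0.13 by edgeR.

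**Figure D2:**
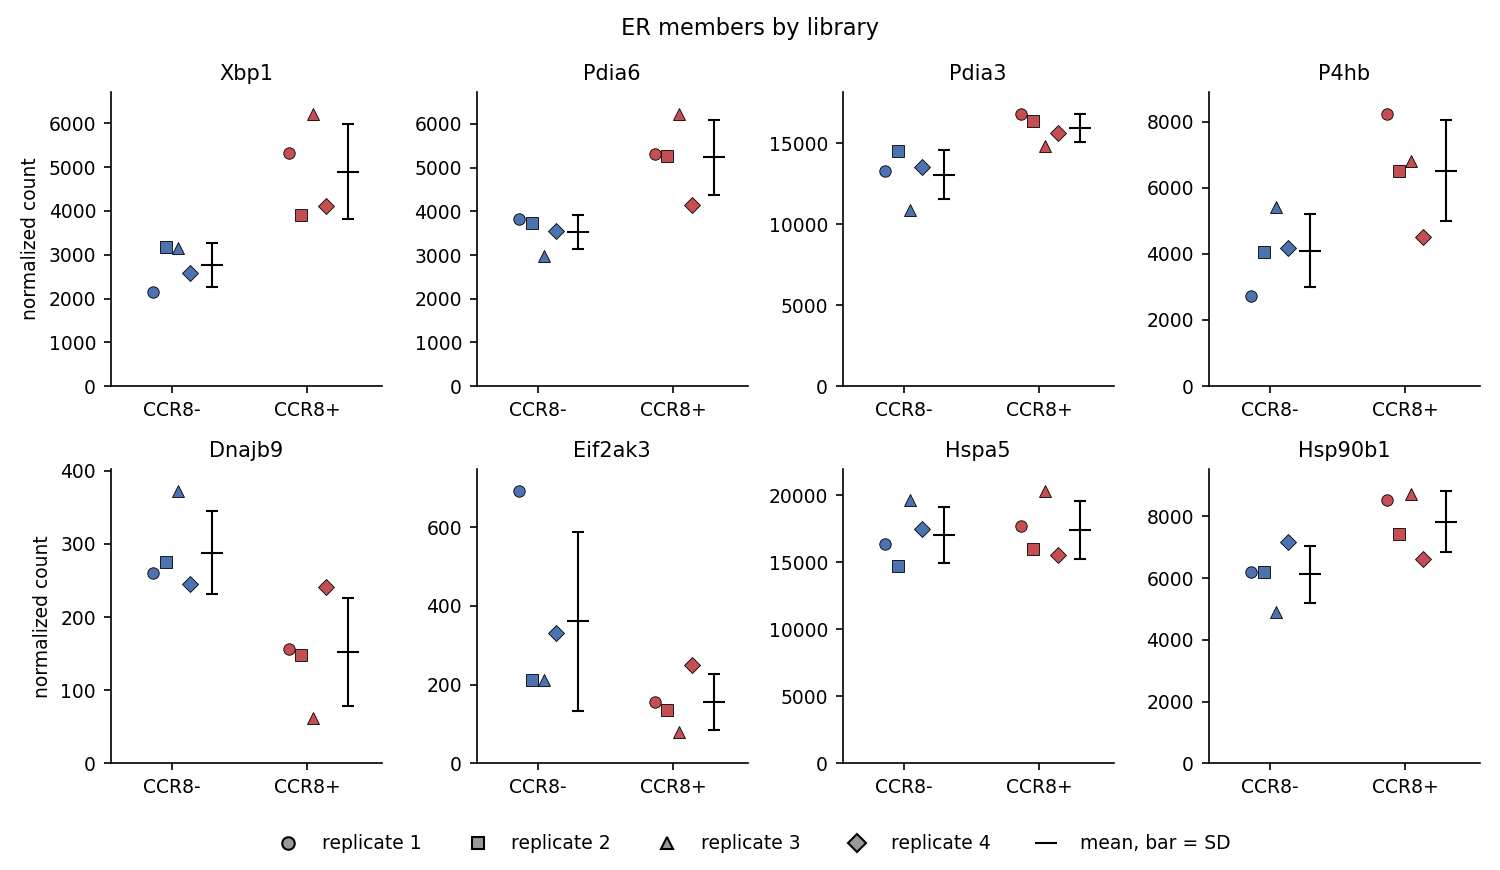
Normalized counts (y axis, linear from 0) of 8 ER genes in each CCR8- and CCR8+ library (x axis), with marker shape for the replicate number and the mean ± SD of 4 libraries beside the points. Xbp1, Pdia6 and Pdia3 do not overlap between the groups and are higher in CCR8+ libraries, Dnajb9 does not overlap and is lower, and Hspa5 overlaps throughout.

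The 8 members with an ERSE did not share 1 direction. Their log2 fold changes ran from -0.21 for *Dnajc3* to 0.56 for *Pdia6*, with 7 positive and a median of 0.32. The 17 matched ER members without that element ran from -1.15 to 1.83, with 13 positive and a median of 0.21. *Hspa5* and *Pdia6*, whose promoters are printed above, were at 0.03 and 0.56. *Xbp1* and *P4hb* had no match in their windows.

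The 5 members of the degradation machinery, which sends misfolded proteins back to the cytosol, had a median of 0.35 and 4 positive values, and all 5 overlapped. *Sel1l*, the scaffold of the HRD1 ligase, was at 107, 523, 833 and 494 normalized counts in CCR8- replicates 1 to 4 and at 1203, 472, 1284 and 429 in CCR8+ replicates 1 to 4. Its log2 fold change was 0.94 (SE 0.63) and 0.32 without CCR8- replicate 1. *Syvn1*, the ligase itself, was higher in 4 of 4 pairs, with a log2 fold change of 0.38. *Edem1*, which hands over glycoproteins, was at 0.35, *Herpud1*, an adaptor, at 0.20 and *Selk*, a selenoprotein of the same complex, at -0.20. *Selk* was at 10759 normalized counts in CCR8- replicate 1, above the 7 other libraries, which ran from 3497 to 6065.

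All 6 translocon members were positive, between 0.04 for *Sec61a1* and 0.33 for *Ssr4*, and all 6 overlapped between the groups. *Sec61a1* and *Sec61b* encode channel subunits, and *Ssr1* to *Ssr4* the TRAP complex beside the channel. Copies elsewhere share 41.0% of the windows of *Sec61b*, whose level is uncertain. The summed level of the 6 was 12302 to 17529 normalized counts in CCR8- and 15180 to 18153 in CCR8+ libraries.

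The ER members were also set against their own means in each library. The median deviation of the 30 genes from their own mean over the 8 libraries was -0.08, -0.05, -0.07 and -0.05 on the log2 scale in CCR8- replicates 1 to 4 and 0.25, 0.14, 0.24 and -0.03 in CCR8+ replicates 1 to 4. The groups did not overlap, but CCR8+ replicate 4 lay next to the CCR8- libraries. On the other measures of the same 30 genes they overlapped, with sums of 88351 to 101533 normalized counts in CCR8- and 96537 to 115351 in CCR8+ libraries, and shares of 0.672 to 0.770% and 0.697 to 0.884% of the library. For the 15 cytosolic members the same median was -0.27, -0.21, 0.44 and 0.17 in CCR8- and -0.28, -0.06, 0.26 and -0.05 in CCR8+ replicates 1 to 4. The groups overlapped, and replicate 3 was the highest in both.

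**Figure D3:**
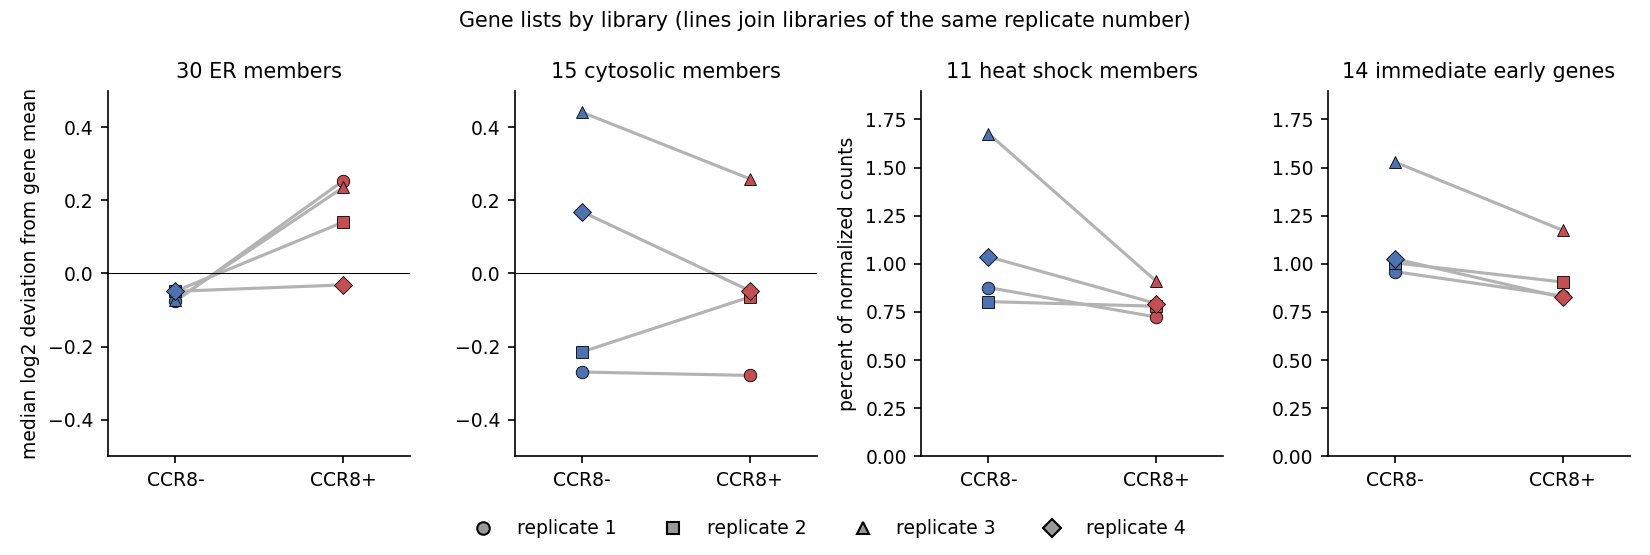
From left to right, the median log2 deviation from the gene's mean over 8 libraries for the 30 ER and the 15 cytosolic genes, and the percent of normalized counts taken by the 11 heat shock genes and by the 14 immediate early genes (y axes), in each CCR8- and CCR8+ library (x axis); lines join equal replicate numbers. The ER medians of CCR8- libraries lie between -0.08 and -0.05, and CCR8- replicate 3 stands above the other libraries in both shares, at 1.68% and 1.53%.

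The 11 heat shock members (HSF1, HSP70, HSP90 and their partners) had a median log2 fold change of -0.34, with 3 positive and 8 negative. None of the 11 was called or had groups that did not overlap. Together they took 0.876, 0.803, 1.68 and 1.04% of the normalized counts in CCR8- replicates 1 to 4 and 0.723, 0.779, 0.909 and 0.793% in CCR8+ replicates 1 to 4. CCR8- replicate 3 stands apart, and the other libraries overlap.

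*Hspa1a* and *Hspa1b*, the paired stress-inducible HSP70 genes (chr17:34969190-34972156 and chr17:34956436-34959238, minus strand), were highest in that library. *Hspa1a* was at 4843, 4717, 18864 and 6563 normalized counts in CCR8- replicates 1 to 4 and at 3582, 4283, 7290 and 4271 in CCR8+ replicates 1 to 4. *Hspa1b* was at 4578, 6678, 25586 and 8996 and at 5172, 5336, 9758 and 4887. Replicate 3 was the highest library of both groups for both genes.

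The log2 fold changes were -0.64 (SE 0.42) for *Hspa1a* and -0.60 (SE 0.46) for *Hspa1b* (limma adjusted p = 0.838 for both), and -0.18 and -0.11 without CCR8- replicate 3. Of their 50-base windows, 60.3% and 62.3% also occur in transcripts of other genes, mostly in each other, and 19.0% of the exonic bases of *Hspa1a* lie under a gene on the opposite strand. Only uniquely mapped reads were kept, so how reads were split between the pair is uncertain.

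*Dnajb1*, the HSP40 partner of HSP70, was at 9057, 4580, 13104 and 7977 normalized counts in CCR8- replicates 1 to 4 and at 4635, 3949, 6759 and 6540 in CCR8+ replicates 1 to 4. It was lower in the CCR8+ library in 4 of 4 pairs, as were *Hspa8*, *Hspa4*, *Hspa1a* and 8.1% of all tested genes. Its groups overlapped. It differed by -0.61 on the log2 scale (SE 0.32, limma adjusted p = 0.838, exact permutation p = 0.171), and by -0.37 without CCR8- replicate 3.

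*Hspa8*, the constitutive HSP70 of the cytosol, had the highest level per exonic kilobase of the 48 genes, 12135 normalized counts per kb in CCR8- and 9076 in CCR8+ cells. Its level was 56848, 40565, 63459 and 47907 normalized counts in CCR8- replicates 1 to 4 and 36987, 38709, 43412 and 37037 in CCR8+ replicates 1 to 4. Only CCR8+ replicate 3 reached into the CCR8- range. Its log2 fold change was -0.40 (SE 0.28, limma adjusted p = 0.838, exact permutation p = 0.0571). With the same total in every library its groups no longer overlapped. Processed copies share 73.2% of its windows, so its level is uncertain.

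The HSP90 genes overlapped throughout. *Hsp90ab1*, the constitutive form and the second by level per kb, was at 22790, 24537, 40777 and 39438 normalized counts in CCR8- replicates 1 to 4 and at 22598, 25385, 32257 and 30631 in CCR8+ replicates 1 to 4. *Hsp90aa1*, the inducible form, was at 8492, 11247, 16860 and 20025 and at 10903, 11819, 18360 and 14215. In both groups replicates 3 and 4 were the high ones. The log2 fold changes were -0.17 (SE 0.29) and 0.02 (SE 0.30), and that of *Hsp90aa1* took the other sign under 4 of the 13 alternatives that kept every library. Of the windows of *Hsp90aa1*, 58.5% also occur in transcripts of other genes, so its level is uncertain.

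*Hsf1*, the heat shock factor, was at 730, 445, 1401 and 555 normalized counts in CCR8- replicates 1 to 4 and at 342, 694, 794 and 437 in CCR8+ replicates 1 to 4, with CCR8- replicate 3 the highest. Its log2 fold change was -0.40 with a standard error of 0.43. *Hspa4* was at -0.28, *Dnaja1* at 0.03 and *Hsph1* at 0.13. *Bag3*, a co-chaperone of HSP70, was at 0.99 normalized counts in CCR8- replicate 1 and at 0 in CCR8+ replicate 1, against 156 to 496 in the other libraries, and its log2 fold change of -0.34 had a standard error of 2.20.

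Immediate early genes, which T cells switch on within a short time of stimulation, were high in the same library. The 14 immediate early genes, such as *Fos*, *Jun* and *Egr1*, took 0.959, 1.005, 1.53 and 1.03% of the normalized counts in CCR8- replicates 1 to 4 and 0.833, 0.905, 1.17 and 0.825% in CCR8+ replicates 1 to 4. Of the 14, 9 were lower and 5 higher in CCR8+ cells, with a median log2 fold change of -0.07 and a range of -0.79 to 3.19. Within pairs of equal number the medians were 0.45, 0.04, -0.32 and -0.43. *Ier2* and *Dusp1* were lower without overlap between the groups, where 2.03% of tested genes were. For *Ier2* the log2 fold change was -0.70 (SE 0.20), with an adjusted p of 0.8286 by limma and 0.0309 by DESeq2. Their part in the heat shock values was not tested.

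The 4 members of the CCT chaperonin, which folds actin and tubulin, had a median log2 fold change of 0.23. Their summed level was 16161 to 17809 normalized counts in CCR8- and 18509 to 23305 in CCR8+ libraries, which did not overlap. As a share of the library they did, at 0.124 to 0.155% and 0.134 to 0.165%. *Cct3*, named after its values were seen, was at 2885, 3860, 4773 and 3088 in CCR8- replicates 1 to 4 and at 5794, 4166, 5873 and 4820 in CCR8+ replicates 1 to 4. It was higher in 4 of 4 pairs, where 8.44% of tested genes were, with a log2 fold change of 0.51 (SE 0.22, limma adjusted p = 0.838, exact permutation p = 0.0571). *Cct8* was at 0.29, *Cct5* at 0.17 and *Cct2* at -0.02.

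*Hspa9*, the mitochondrial HSP70 that draws proteins through the inner membrane, was at 980, 1759, 2118 and 1999 normalized counts in CCR8- replicates 1 to 4 and at 3491, 2234, 4474 and 2586 in CCR8+ replicates 1 to 4. Every CCR8+ library was above every CCR8- library, with means of 1714 ± 512 and 3196 ± 1003 (SD, n = 4). On the log2 scale the difference was 0.91 (SE 0.30, limma adjusted p = 0.838), and 0.66 without CCR8- replicate 1. The groups overlapped after quantile normalization and with the same total in every library. Its partners of the matrix chaperonin, *Hspd1* and *Hspe1*, which share the promoter stretch with the heat shock elements, were at 0.36 and 0.15 with overlapping groups. Of their windows, 44.8% and 36.1% also occur in other genes, so both levels are uncertain.

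**Figure D4:**
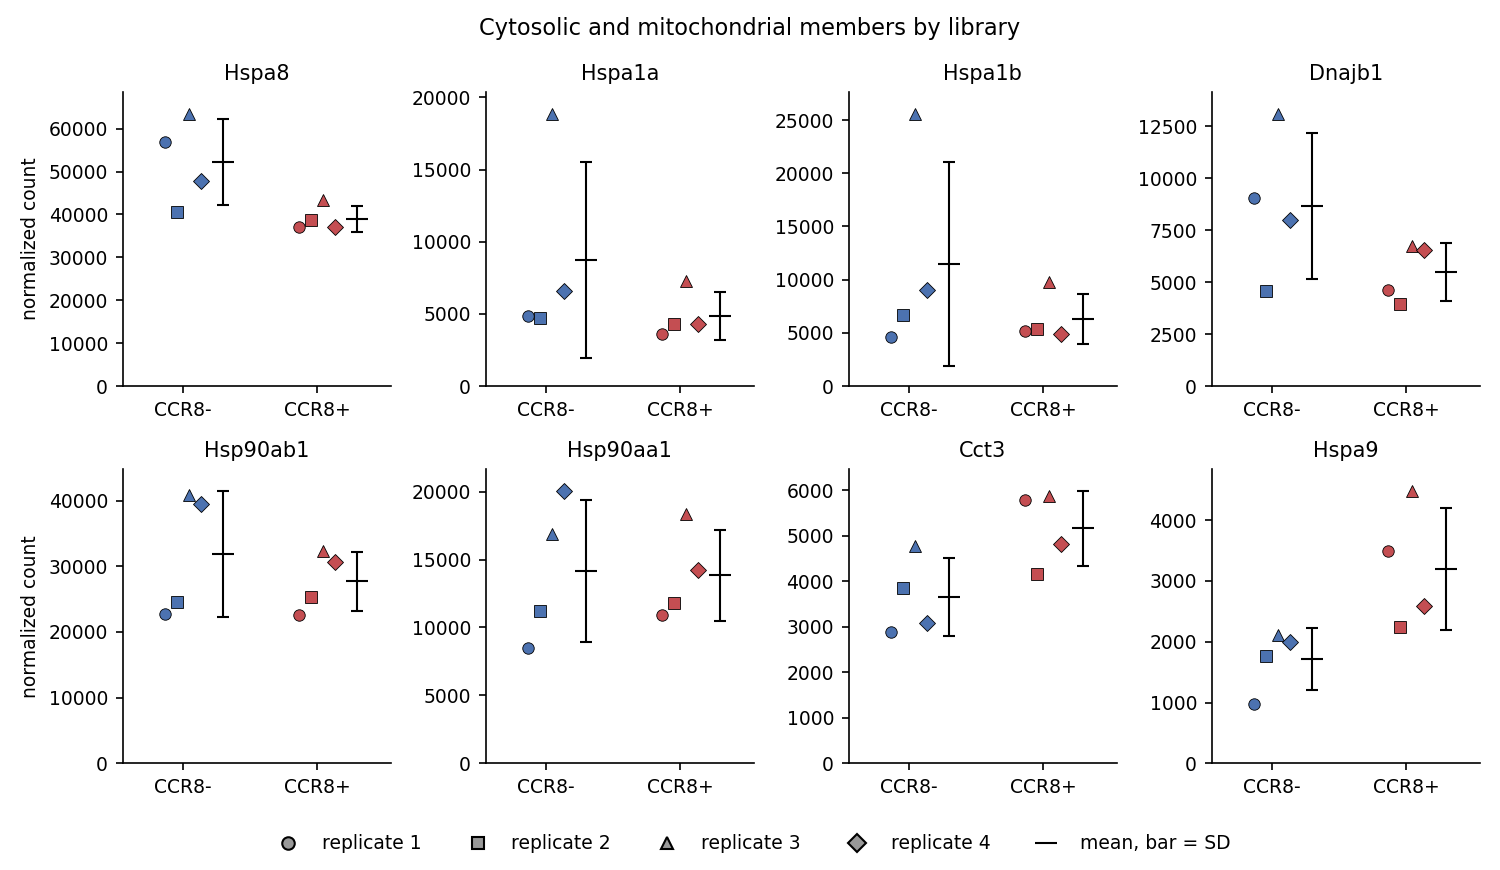
Normalized counts (y axis, linear from 0) of 7 cytosolic genes and of Hspa9 in each CCR8- and CCR8+ library (x axis), with marker shape for the replicate number and the mean ± SD of 4 libraries beside the points. Replicate 3 is the highest CCR8- library for Hspa8, Hspa1a, Hspa1b and Dnajb1, and Hspa9 alone of these 8 does not overlap between the groups.

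Other genes of the same pathways, outside the 48, were also read as lists. From each list the genes without overlap are named, where 4.4% of all tested genes had no overlap. They were 1 of 27 ER folding genes, 2 of 16 in the ATF4 arm and 1 of 9 around ATF6. There were 2 of 38 cytosolic chaperones, 1 of 12 CCT and prefoldin genes and 1 of 14 mitochondrial genes. The degradation list (22) and the translocon list (28) held 0. Of 27 tested ER folding genes, 19 were positive, with a median of 0.23. *Ero1l*, the oxidase that recharges the disulfide isomerases, was at 4307, 3455, 3769 and 3154 normalized counts in CCR8- replicates 1 to 4 and at 6722, 6193, 32664 and 5288 in CCR8+ replicates 1 to 4. The groups did not overlap, and CCR8+ replicate 3 stood far above the rest, with a log2 fold change of 1.34 (SE 0.48, limma adjusted p = 0.838). *Sdf4*, a calcium-binding protein named after its values were seen, overlapped between the groups. DESeq2 gave it a log2 fold change of 1.14 with an adjusted p of 0.0476, and limma 1.05 with an adjusted p of 0.838.

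The list of eIF2alpha phosphorylation and the ATF4 arm, downstream of PERK, held 10 positive and 6 negative genes of 16, with a median of 0.18. *Ppp1r15a*, the phosphatase subunit that ends eIF2alpha phosphorylation, was at 10599, 10342, 13509 and 10409 normalized counts in CCR8- replicates 1 to 4 and at 6859, 6995, 9074 and 6741 in CCR8+ replicates 1 to 4. Every CCR8+ library was below every CCR8- library, at a log2 fold change of -0.60 (SE 0.20, limma adjusted p = 0.838, DESeq2 adjusted p = 0.0929). *Cebpg*, a partner of ATF4, also did not overlap, at -0.50. *Atf4* itself was at -0.07 and *Ddit3*, the gene of CHOP, at -0.42, both with overlapping groups and named after their values were seen. Among the positive genes, *Atf3* was at 0.82 (SE 0.40) and higher in 3 of 4 pairs. It was also named after its values were seen, and its groups overlapped.

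Of the 9 genes around ATF6 and its proteases, 3 were positive, and *Nfyb*, a subunit of the factor that binds the CCAAT part of the ERSE, was higher without overlap at 0.52. ER degradation genes outside the 48 had 9 of 22 positive and a median of -0.07, and the translocon, signal peptidase and glycosylation genes 20 of 28 and 0.15. The degradation list also held *Sec61g*, a subunit of the SEC61 channel, which was positive at 0.46. The other cytosolic chaperones were split evenly, 19 positive and 19 negative, and *Ptges3*, a co-chaperone of HSP90, and *Dnajb2* were higher without overlap at 0.50 and 1.21. Of the 12 other CCT and prefoldin genes 6 were positive, with *Tcp1*, the first CCT subunit, higher without overlap at 0.45. Of 14 other mitochondrial chaperones and proteases 10 were positive, and *Clpx*, an unfoldase, was lower without overlap at -0.62. None of these had a limma adjusted p under 0.838.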

How the data were processed

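Gene expression of 8 bulk RNA-Seq libraries was analyzed, 4 of CCR8+ and 4 of CCR8- Tconv cells, grouped by their labels. The members and gene lists were chosen with earlier results of these data known.

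Per the methods and labels, the authors made libraries with a low-input SMARTer kit, used FastQC and Cutadapt and, with hisat2, placed reads on NCBIM37, of which those mapped uniquely were counted. HTSeq and DESeq2 are named in the submitters' processing notes, and versions and strand settings are not given in the sources used here. Each deposited value is a signal, the read count of a gene divided by a factor of its library, and is called a normalized count here. Their totals were between 11469410 and 14394101 per library. Whole reads were recovered for 100% of values (tolerance 0.01), between 12067780 and 17802628 per library. Limits from read numbers cover counting error only, as PCR copies could not be told apart. The number of unused columns of per-sample values was 0.

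Differences were tested with limma 3.58.1 (R 4.3.3) with a trend on log2(normalized count + 1), over the 11032 genes whose mean reached 10, and p-values were adjusted by the Benjamini-Hochberg method. A fold change on this scale understates that of low genes, except where a library at or near 0 inflates it, as for Hyou1, Atf6 and Ern1. Exact two-sided permutation tests used all 70 assignments of the labels. Alternatives were a pseudocount of 0.1 or 10, a mean limit of 100 or none, other scalings (same total, TMM, quantile), no trend, the replicate block, edgeR 4.0.16 and DESeq2 1.42.0 on recovered reads with and without the block, and leaving out each library or replicate number. The tests were also run on simulated data, in which the changed genes differed by more than any member did here. Their power at the differences seen here was not measured.

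Genes named by rule were 12 central members, members whose groups did not overlap, the 4 largest changes among ER and among other members, Ccr8, and up to 3 genes without overlap per further list. Positions and exon lengths are of GRCm38 (GENCODE M21), while the authors used NCBIM37. Promoter windows and motifs are from RefSeq (GRCm38.p6), with Selk matched as Selenok. Windows of 50 bases were compared among GENCODE transcripts to find shared sequence.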

Additional observations from a re-analysis of the deposited data

Results flagged for a closer look

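In 6 of 114 groups of 4 libraries, over 57 genes, 1 library lay farther from the others than Dixon's limit allows, where chance alone flags about 1 in 20 groups. All 6 were replicate 3. Hspa1a was at 18863.7 normalized counts in CCR8- replicate 3, against 4717 to 6563 in the other CCR8- libraries. Hspa1b was at 9757.6 in CCR8+ replicate 3, against 4887 to 5336, and Cct5 at 7735.6, against 5382 to 5622. Among genes outside the 48, Ero1l was at 32664.5 in CCR8+ replicate 3, against 5288 to 6722. Ppp1r15a was at 13509.4 in CCR8- replicate 3, against 10342 to 10599, and at 9074.47 in CCR8+ replicate 3, against 6741 to 6995.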

How the results depend on the processing

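The number of members called stayed at 0 under all alternatives run. The number of genes called, 0 by limma, was 2 without the trend, 1 with the replicate block, 26 by DESeq2 and 124 by DESeq2 with the replicate block, and 0 elsewhere. Deviations of same-numbered libraries correlated by 0.0682 to 0.217 and of others by -0.171 to 0.101, and 7 of 8 libraries correlated best with their own number, so the numbers are a hint of pairing only. ER members without overlap, 4 of 30, were 1 after quantile normalization, and 4 to 7 on leaving out a library or number. Cytosolic members without overlap, 0 of 15, were 1 (Hspa8) with the same total in every library and 0 to 3 on leaving out. Genes without overlap, 485, were 699 to 968 on leaving out 1 library and 1074 to 1382 on leaving out 1 number, where smaller groups overlap less. The ER median of 0.24 was 0.17 with the same total and 0.17 to 0.32 on leaving out, the cytosolic median of -0.17 was -0.24 to 0.048 on leaving out, being positive without CCR8- replicate 4, and -0.037 by DESeq2, -0.040 by edgeR and -0.28 after quantile normalization, and the mitochondrial median of 0.36 was 0.24 after quantile normalization, 0.29 with the same total and 0.11 to 0.61 on leaving out. The cause was not tested.

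Of the 48 members, 6 with values near 0 changed direction under an alternative that kept all libraries. With the same total and after quantile normalization, Hspa5 was at -0.041 and -0.086, Dnaja1 at -0.038 and -0.059, Sec61a1 at -0.032 and -0.039, and Hsp90aa1 at -0.055 and -0.070, while Ssr3 was at -0.0037 with the same total. With edgeR and DESeq2, Hsp90aa1 was at -0.037 by both, and Hsph1 at -0.021 and -0.019. On leaving out 1 library or number, the log2 fold change of 15 genes changed direction and ran for Bag3 from -2.16 to 1.69, for Cct2 from -0.13 to 0.071, for Dnaja1 from -0.050 to 0.13, for Dnajb11 from -0.30 to 0.15, for Herpud1 from -0.16 to 0.53, for Hsp90aa1 from -0.20 to 0.21, for Hspa5 from -0.048 to 0.10, for Hspe1 from -0.057 to 0.51, for Hsph1 from -0.24 to 0.44, for Hyou1 from -0.19 to 2.51, for Sdf2l1 from -0.011 to 0.48, for Sec61a1 from -0.094 to 0.18, for Sec61b from -0.041 to 0.34, for Selk from -0.49 to 0.24 and for Ssr3 from -0.11 to 0.27. Ern1, Atf6, Hyou1 and Bag3 rest on few reads in replicate 1 libraries. Ppp1r15a, at an adjusted p of 0.838 by limma, was at 0.00574 by DESeq2 with the replicate block. Ccr8, at 0.8286 by limma, was at 2.14e-28 by DESeq2 with that block.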
